A study of Mus musculus with 8 samples.

Results

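Conjugation enzymes and carboxylesterases were followed in the intestine of claudin-7 knockout (KO) and wild-type (WT) pups. The members are the glutathione S-transferases (Gsta, Gstk, Gstm, Gsto, Gstp, Gstt and the membrane-bound Mgst), the UDP-glucuronosyltransferases (Ugt1 and Ugt2), the sulfotransferases (Sult) and the carboxylesterases (Ces). They were chosen by gene name in the array files, which gave 77 of 55681 non-control probes and 53 genes. Of these, 44 genes stood clearly over background on both arrays of some group and were tested among 20138 genes, and 41 of the 44 were above background on all 8 arrays.

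The data are 8 single-colour Agilent arrays of total RNA from fragments of intestine. The 4 groups are KO small intestine, WT small intestine, KO large intestine and WT large intestine, all from 129SV pups at 3 days of age and without treatment, with 2 arrays each, numbered 2 and 3. The sources used here do not say whether the knockout is confined to a cell type, nor which samples came from the same pup, so the p-values measure the spread between these samples, which may be technical. Values are log2 signals, that is, log2 of a probe's processed signal minus the 75th percentile of its array, and pairs of values are given in the order array 2, array 3. A fold change is a difference of group means on this scale, as estimate ± standard error (SE, n = 2 arrays a group), and "passed" means a Benjamini-Hochberg adjusted p under 0.05 in limma over all 20138 genes. The level of 1 probe cannot be set against that of another.

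Conjugation is the second phase of drug and xenobiotic metabolism. Glutathione S-transferases join glutathione to reactive electrophiles, UDP-glucuronosyltransferases join glucuronic acid, and sulfotransferases join sulfate to alcohols, phenols and steroids, while carboxylesterases act in the first phase, splitting esters and amides and so releasing groups that can then be conjugated. Enterocytes of the small intestine carry many of them on the route of absorbed compounds, and much of their expression is set by epithelial transcription factors and by receptors for drugs and bile acids.

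Cldn7, the targeted gene, read 2.21 and 0.94 in KO small intestine against 5.89 and 5.93 in WT, and 2.08 and 2.16 in KO large intestine against 5.70 and 5.56 in WT. The sources do not say whether the probe sits within the deletion. Several arrays held transcripts of other tissues. Alb, serum albumin, read 5.23 on KO large intestine array 2 and -5.06 on KO array 3, and between -8.38 and -4.53 on the other 6 arrays. Amy2a5, pancreatic amylase, read 2.05 on KO large intestine array 3 and 2.30 on WT large intestine array 2, against -3.86 or less on the others. Xist, the RNA of X inactivation, stood at -2.42 and -2.43 on the KO arrays numbered 3 and -6.25 or less on the other 6.

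In the small intestine, markers of the gut wall moved with genotype. All 7 enteric neuron markers rose in KO, 3 of 6 fibroblast markers and 3 of 5 macrophage markers rose, and 1 of 8 smooth muscle markers rose. Of 10 enterocyte markers 1 fell, and their summed signal (log2) was 9.85 and 9.10 in KO and 9.79 and 9.55 in WT. The summed enteric neuron signal was 5.28 and 6.0 (log2) in KO small intestine and 4.14 and 3.27 in WT. The summed smooth muscle signal was 8.83 and 9.13 in KO and 8.22 and 7.37 in WT. Of 10 epithelial markers 1 fell and none rose, and their summed signal was 9.07 and 8.76 in KO and 8.96 and 9.15 in WT. Of 9 measured stomach markers 2 rose, with 4 fold changes above 0, 5 below and a median of -0.43. Their summed signal was 2.94 and 3.42 in KO small intestine and 0.29 and -0.12 in WT. In KO that sum came mostly from Anxa10, which read 2.81 and 3.29 against -3.26 and -6.48 in WT. Of 10 pancreatic acinar markers 1 rose, with 6 fold changes above 0, 4 below and a median of 0.13. Their summed signal was 0.45 and -0.037 in KO small intestine and 3.91 and 4.28 in WT. In WT that sum came mostly from Ctrb1, which read -1.32 and -2.78 in KO against 3.84 and 4.24 in WT. Of 12 measured hepatocyte markers 1 fell, with a summed signal of 5.65 and 5.51 in KO and 6.93 and 6.67 in WT. The part of these shifts in the results below was not tested, and fewer cells of a type cannot be told apart from less RNA per cell in such samples.

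In the small intestine of KO pups the conjugation enzymes and carboxylesterases were mostly lower than in WT, with the sulfotransferases split between rises and falls. Of the 44 genes, 10 passed (the background over all genes is 9.89%), 7 lower and 3 higher, against backgrounds of 3.51% lower and 6.38% higher. The 7 that fell were the carboxylesterases Ces2a, Ces2c and Ces2e, the glutathione S-transferases Gstm3 and Mgst1, the glucuronosyltransferase Ugt2b35 and the sulfotransferase Sult1c2, and the 3 that rose were the sulfotransferases Sult1a1, Sult2b1 and Sult5a1. Fold changes were below 0 for 37 of the 44 genes with a median of -1.08, against 11525 of 20138 genes and a median of -0.10 over all genes tested. Like the share over all genes tested, the count of members that passed rested on single arrays. Both were higher without KO small intestine array 2. Both were lower without KO small intestine array 3, WT small intestine array 3 or either WT large intestine array. The large intestine arrays share in the estimate of spread. Over 19 alternative settings (18 for Sult1c2), Ugt2b35 and Ces2e did not pass under 8, Sult2b1 under 7, Mgst1 and Sult1a1 under 5, Ces2c under 4, Sult1c2 under 2 and Gstm3 under 1.

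**Figure D1:**
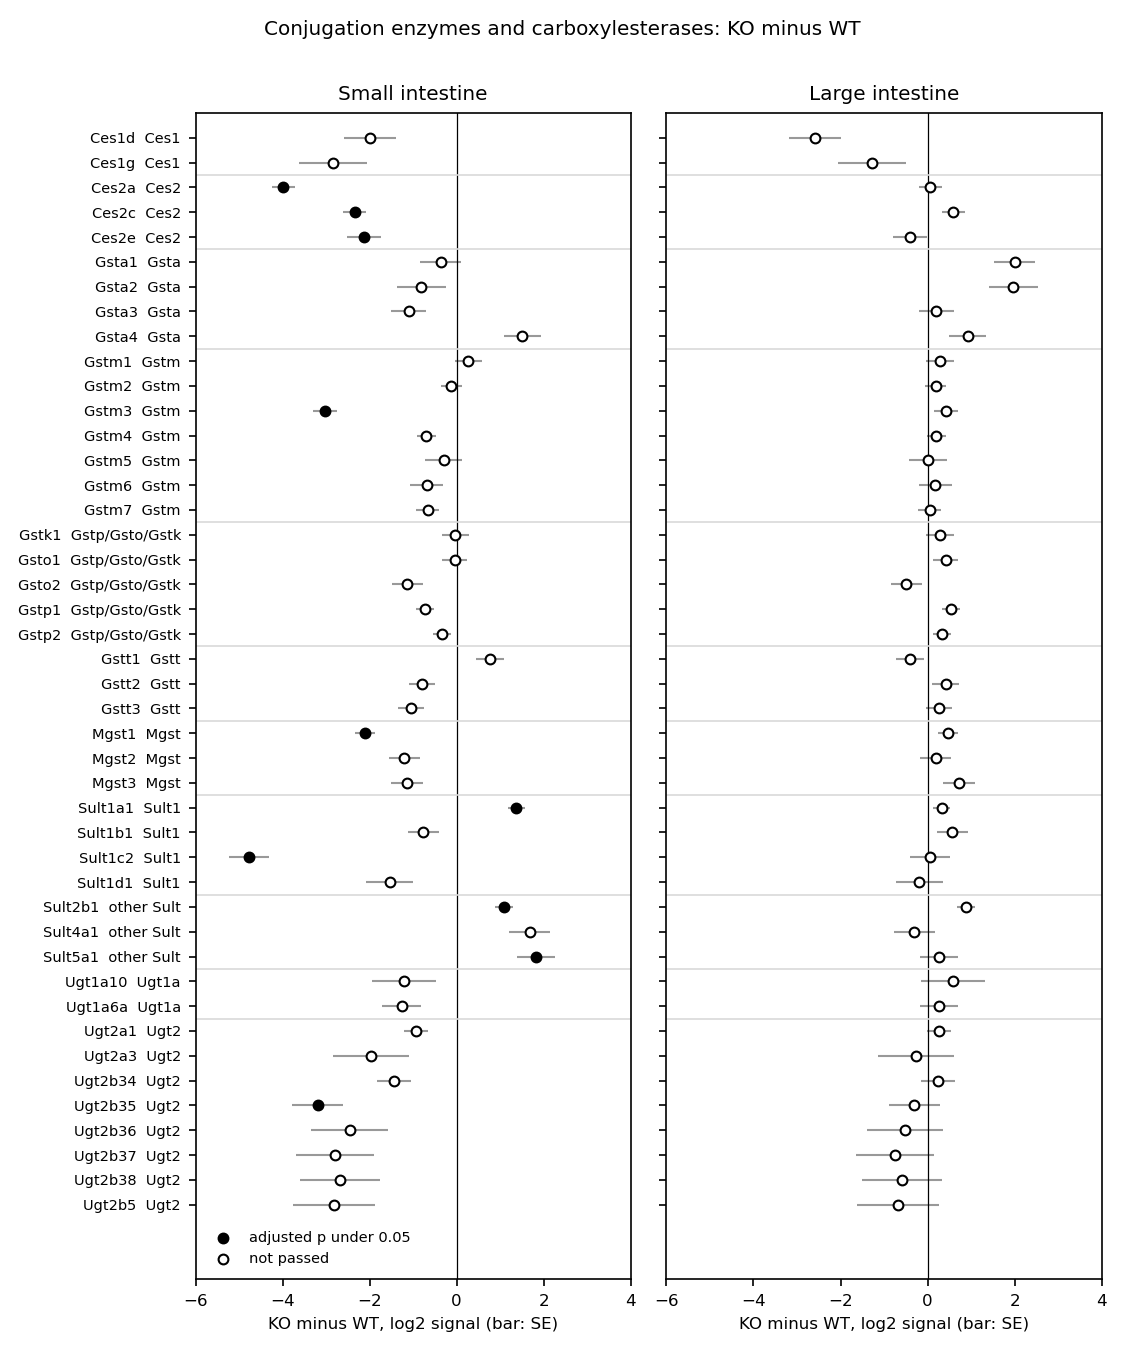
Fold changes of the 44 tested genes, KO minus WT on the log2 scale, in the small intestine (left) and the large intestine (right), with bars of 1 SE and genes grouped by family. Filled points passed: 10 in the small intestine and 0 in the large, and most small intestine points lie left of 0.

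The Ces2 carboxylesterases are intestinal enzymes that hydrolyse esters with large alcohol groups. All 3 tested member genes passed as lower in KO small intestine, Ces2c by only 1 of its 3 probes. Ces2a read -2.94 and -3.54 in KO small intestine against 0.89 and 0.60 in WT. Both KO values lay far under both WT values, and Ces2a fell by 3.98 ± 0.27 (15.8-fold, adjusted p = 0.00342), passing under all 19 alternative settings tried. The large intestine values of Ces2a were -0.72 and -0.42 in KO against -0.71 and -0.56 in WT, so that the groups overlapped. Ces2e read 4.33 and 3.41 in KO small intestine against 5.93 and 6.06 in WT, and fell by 2.12 ± 0.40 (4.36-fold, adjusted p = 0.0350). A second Ces2e probe had a larger difference of -3.32.

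For Ces2c, 3 probes lie close together on chromosome 8 and gave different results. The most upstream probe (chr8:107378105-107378164, mm9, plus strand), which has the highest mean and stands for the gene, read 1.54 and 0.98 in KO small intestine against 3.49 and 3.73 in WT, a fall of 2.35 ± 0.27 (5.09-fold, adjusted p = 0.0149). The downstream probes chr8:107378258-107378317 and chr8:107378292-107378351 share 26 bases with each other. They read 0.32 and 0.27, and -0.87 and -0.86, in KO small intestine against 0.30 and 0.25, and -0.87 and -0.97, in WT, differences of 0.02 and 0.05 where the upstream probe fell. Both downstream probes stood much higher in large than in small intestine in WT (by 3.78 and 3.86, against -0.064 for the upstream probe). With the mean of the probes, Ces2c had a small intestine difference of -0.76 and did not pass (adjusted p = 0.0621).

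The letters show how close these paralogs are. The last bases of the upstream Ces2c probe and the first bases of the Ces2a probe (chr8:107265289-107265348, mm9, plus strand) line up over 28 bases, of which 23 are the same, and capitals mark the bases that differ.
Ces2c: ttctcaggacaagcaCAGGgagctTtag
Ces2a: ttctcaggacaagcaTGCAgagctGtag
An unnamed probe on the array shares 43 of 47 bases with the upstream Ces2c probe and 27 of 28 with the Ces2a probe. It read 0.49 and -0.12 in KO small intestine against 2.66 and 2.89 in WT. The first of the downstream Ces2c probes shares 31 of 33 bases with a probe named BC015286, which read -0.57 and -0.59 in KO small intestine against -0.52 and -0.66 in WT, and 3.98 and 4.04 in KO large intestine against 3.17 and 3.53 in WT. Each of these Ces2c probes thus went with the probe that resembles it. How far these probes bind each other's transcripts was not tested.

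**Figure D2:**
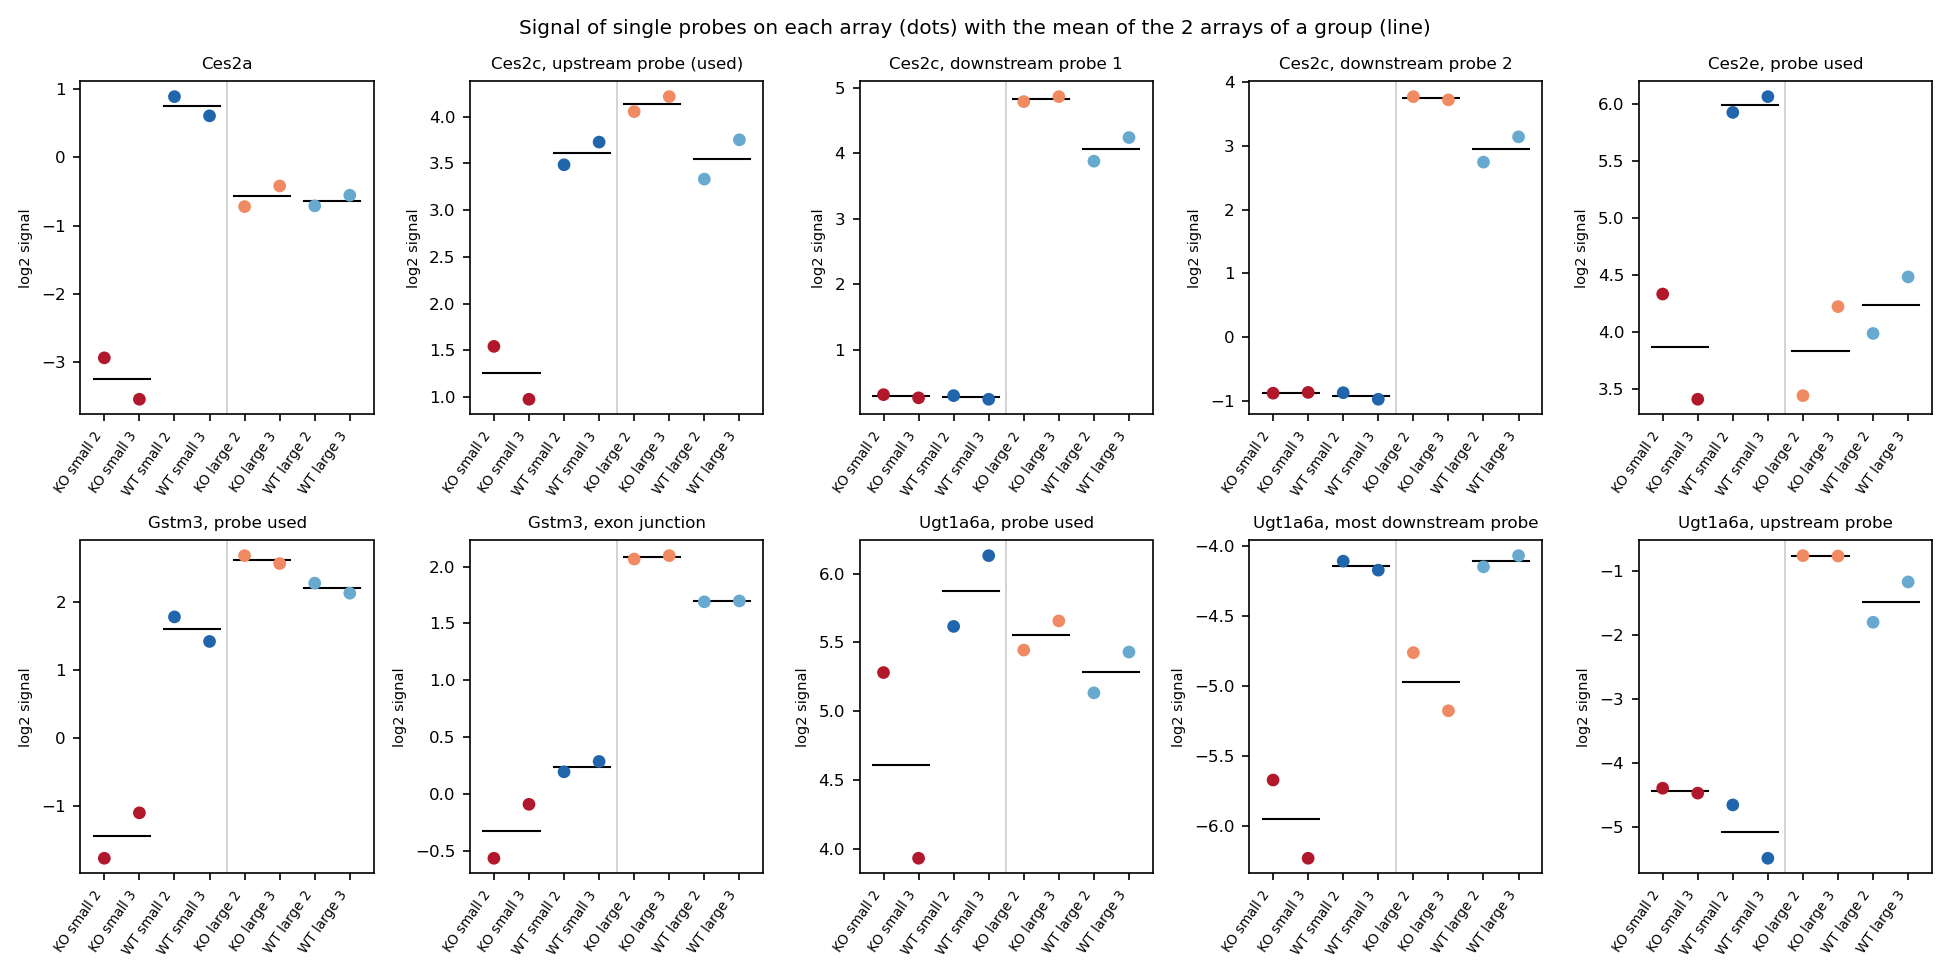
Log2 signal of single probes on the 8 arrays, KO left of WT within each segment, with a line at the mean of each pair of arrays. The upstream Ces2c probe separates KO from WT small intestine while the downstream probes do not, and the Gstm3 and Ugt1a6a probes also differ among themselves.

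Of the Ces1 carboxylesterases neither gene passed. Ces1d, which also acts as a triacylglycerol hydrolase, read -3.52 and -4.09 in KO small intestine against -2.60 and -1.02 in WT, a difference of -2.0 ± 0.60 (adjusted p = 0.0748). Large intestine readings were -1.91 and -3.13 in KO against -0.099 and 0.23 in WT, a difference of -2.58 ± 0.60 (adjusted p = 0.181). KO values lay under all WT values of their segment in both. A probe for Ces1c (named Es1 in the files), which shares 31 of 34 bases with the Ces1d probe, read -3.11 and -4.14 in KO small intestine against -1.29 and -0.61 in WT, and -1.84 and -2.34 in KO large intestine against 1.18 and 0.68 in WT. Ces1g, a carboxylesterase best known from liver, was not well above background on any KO array. It was at least 2.36-fold lower in KO than in WT small intestine (adjusted p = 0.0628), with measured means of -8.31 and -5.47.

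Among the glutathione S-transferases other than Mgst, 1 of 19 tested genes passed in the small intestine. Gstm3, a mu-class transferase, read -1.77 and -1.10 in KO against 1.77 and 1.41 in WT. The groups lay about 3 log2 units apart, and Gstm3 fell by 3.03 ± 0.27 (8.17-fold, adjusted p = 0.00805). Its large intestine values were 2.67 and 2.56 in KO against 2.27 and 2.12 in WT, with KO slightly above. A second Gstm3 probe, which the file maps across a gap in the genome and so an exon junction (chr3:107769290-107770549, mm9, minus strand) read -0.57 and -0.093 in KO small intestine against 0.19 and 0.28 in WT, a difference of -0.57 that did not pass among all probes (adjusted p = 0.131).

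The mu-class genes lie side by side on chromosome 3, and the junction probe has counterparts in Gstm6 (chr3:107745052-107745111, mm9, minus strand) and Gstm7 (chr3:107732073-107733247, mm9, minus strand). The 3 probes are shown whole because they hold matching stretches of the paralogs.
Gstm3: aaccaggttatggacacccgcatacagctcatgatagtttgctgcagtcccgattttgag
Gstm6: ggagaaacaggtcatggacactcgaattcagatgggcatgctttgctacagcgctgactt
Gstm7: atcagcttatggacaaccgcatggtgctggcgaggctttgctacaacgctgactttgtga
Lined up with the Gstm3 junction probe, Gstm6 has the same base at 39 of 56 positions and Gstm7 at 40 of 59. In the overlaps below, capitals mark the bases that differ from Gstm3.
Gstm6: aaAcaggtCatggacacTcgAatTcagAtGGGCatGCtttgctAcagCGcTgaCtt
Gstm7: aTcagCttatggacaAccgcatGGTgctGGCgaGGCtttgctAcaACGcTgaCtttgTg
The Gstm6 probe read -3.80 and -4.60 in KO small intestine against -2.87 and -3.83 in WT, with KO and WT overlapping. The Gstm7 probe read -2.47 and -3.06 in KO against -1.91 and -2.29 in WT, without overlap but with an adjusted p of 0.139.

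The Gstm3 probe that fell shares its first 27 bases with the end of a Gstm1 probe, apart from 2 positions in capitals. Both hold the letters aataaa, which in transcripts serve as a signal for the addition of the poly(A) tail.
Gstm1: tcatCtacaataaagTctgaaacacac
Gstm3: tcatGtacaataaagCctgaaacacac
The Gstm3 probe is at chr3:107766615-107766674 (mm9, minus strand), and the file places this Gstm1 probe at chr5:117082490-117082549 (mm9, minus strand), away from the other Gstm1 probe on chromosome 3. The Gstm1 probe read 1.93 and 2.84 in KO small intestine against 2.03 and 2.19 in WT, so the groups overlapped where the Gstm3 probe separated them. The remaining mu-class genes did not pass. Gstm2 read 3.3 and 3.90 in KO small intestine against 3.65 and 3.79 in WT, again overlapping, and Gstm4, Gstm5 and Gstm6 (by its brightest probe) had differences of -0.69, -0.30 and -0.69.

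The alpha class, which handles products of lipid peroxidation, had no gene that passed in the small intestine. Gsta1 read 1.85 and 1.87 in KO small intestine against 1.66 and 2.79 in WT, and Gsta2 read 3.42 and 1.96 against 3.05 and 3.95, both with overlapping groups. Gsta4, which prefers the lipid aldehyde 4-hydroxynonenal, read -2.10 and -0.92 in KO against -2.92 and -3.11 in WT, a difference of 1.51 ± 0.43 (adjusted p = 0.0664), and was the alpha-class gene with KO above WT. Gsta3 had a difference of -1.10 (adjusted p = 0.120).

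In the large intestine Gsta1 and Gsta2 stood higher in KO. Gsta1 read 4.00 and 5.09 in KO large intestine against 2.37 and 2.71 in WT, a difference of 2.00 ± 0.47 (adjusted p = 0.183). Gsta2 read 3.36 and 4.22 in KO against 1.61 and 2.03 in WT, a difference of 1.97 ± 0.56 (adjusted p = 0.246). Neither passed, and both KO arrays lay above both WT arrays. Without KO array 2, the one that carries Alb, the differences were 2.54 and 2.40, and without KO array 3 they were 1.46 and 1.54. The Gsta1 probe (chr9:78090411-78090470, mm9, plus strand) and the Gsta2 probe (chr9:78178856-78178915, mm9, minus strand) share 46 of 50 bases, shown here over 30 of them with differing bases in capitals.
Gsta1: ctggcctctaatGgtttgcaattataaaaA
Gsta2: ctggcctctaatTgtttgcaattataaaaT
A further probe on the array has the same 60 bases as the Gsta1 probe and differed from it by 0.016 to 0.12 on the log2 scale on the 8 arrays. A probe for the predicted gene Gm10639, with 52 of 53 bases of the Gsta2 probe, read 4.17 and 5.07 in KO large intestine against 2.65 and 2.96 in WT. How far these probes bind each other's transcripts was not tested.

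No gene passed in the small intestine among the theta, pi, omega and kappa classes. Gstp2 read 5.97 and 5.67 in KO small intestine against 6.09 and 6.22 in WT, and Gsto1 read 6.40 and 6.09 against 6.08 and 6.49, with overlap for Gsto1 only. Gstp1, the pi-class enzyme abundant in many epithelia, read 3.62 and 3.61 in KO against 4.18 and 4.51 in WT, a difference of -0.73 (adjusted p = 0.0672). Of the theta class, Gstt1 read 2.13 and 2.80 in KO against 1.93 and 1.48 in WT, and Gstt3 read 2.55 and 1.79 against 3.17 and 3.29. These opposite differences of 0.76 and -1.06 did not pass.

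All 3 microsomal transferases, which sit in membranes and also take part in eicosanoid metabolism, had lower values in KO small intestine, and 1 passed. Mgst1 read 3.07 and 2.89 in KO against 4.91 and 5.24 in WT. It fell by 2.10 ± 0.23 (4.28-fold, adjusted p = 0.0129), and a second probe moved alike (2.38 and 2.29 in KO against 4.19 and 4.74 in WT). Mgst2 read 3.84 and 3.98 in KO small intestine against 4.57 and 5.66 in WT, a difference of -1.21 (adjusted p = 0.0729), and Mgst3 had a difference of -1.13 (adjusted p = 0.0869). Mgst1 in the large intestine read 4.39 and 4.82 in KO against 4.14 and 4.13 in WT.

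The 8 tested Ugt2 genes all had differences below 0 in the small intestine, and 1 passed. Ugt2b35 read -2.52 and -4.50 in KO against -0.50 and -0.14 in WT. It fell by 3.19 ± 0.58 (9.14-fold, adjusted p = 0.0339), and its second probe had a difference of -1.02 (adjusted p = 0.0575 over probes). Ugt2b5, a glucuronosyltransferase of steroids and phenols, read 0.47 and -2.45 in KO against 0.98 and 2.69 in WT. The KO arrays lay 2.91 log2 units apart and the WT arrays 1.71, and the difference of -2.82 ± 0.94 did not pass (adjusted p = 0.0948).

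Ugt2b36, Ugt2b37 and Ugt2b38 followed the same course over the arrays as Ugt2b5. In KO small intestine array 3 lay under array 2 by 2.37, 2.66 and 2.75, and in WT small intestine array 3 lay above array 2 by 2.01, 1.79 and 1.74. In the large intestine the 2 arrays of a group lay within 0.64 of each other for all 4 genes. Ugt2b34, which is transcribed from the same cluster, had smaller gaps of 0.45 in KO small intestine and 1.18 in WT, and a difference of -1.45 ± 0.39 (adjusted p = 0.0596). The Ugt2b5 and Ugt2b37 probes share 42 of 44 bases, and whether each also binds the other's transcript was not tested.

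**Figure D3:**
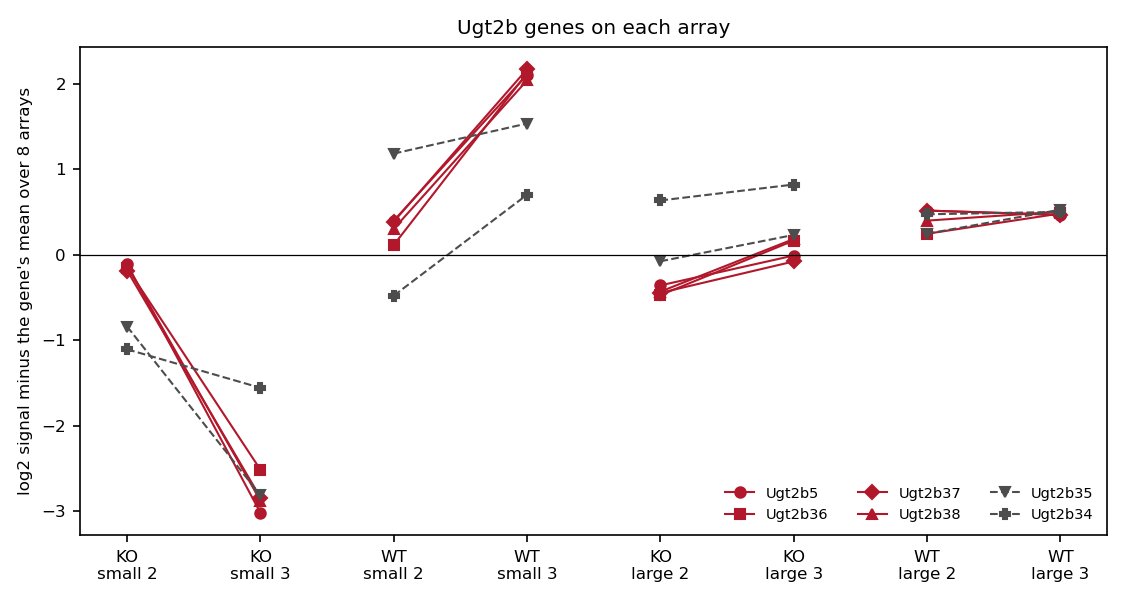
Log2 signal of 6 Ugt2b genes on each array minus the gene's own mean over the 8 arrays, with lines joining the arrays of a group. Ugt2b5, Ugt2b36, Ugt2b37 and Ugt2b38 (red) lie on nearly 1 line, lowest on KO small intestine array 3 and highest on WT small intestine array 3.

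Because these genes moved together, their promoters were compared (RefSeq, assembly GRCm38.p6, 250 bases before to 50 after the gene start, found for 48 of the 53 member genes). The 4 genes with the shared course hold an identical run of 22 bases close to the start, which no other promoter of the 32851 holds. The run was found by comparing these promoters after their values were seen, and nothing about a factor follows from it. Of motifs, TGAC, any 3 bases and GC (both strands), the core of the antioxidant response element, was searched and found in 4071 promoters (12.4%) and in 4 of the 48 member genes, Gsta3, Gstm5, Gstm7 and Mgst1. In the stretches below, which end before the gene start, capitals mark the run of 22 bases.
Ugt2b5: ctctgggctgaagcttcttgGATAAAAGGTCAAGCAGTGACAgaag
Ugt2b36: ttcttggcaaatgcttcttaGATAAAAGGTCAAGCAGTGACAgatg
Ugt2b37: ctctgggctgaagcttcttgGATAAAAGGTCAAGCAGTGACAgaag
Ugt2b38: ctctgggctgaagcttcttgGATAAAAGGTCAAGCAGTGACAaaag
They lie on the minus strand at chr5:87140343-87140388 (Ugt2b5), chr5:87092561-87092606 (Ugt2b36), chr5:87254808-87254853 (Ugt2b37) and chr5:87424209-87424254 (Ugt2b38), and the run starts 28 to 45 bases before the gene start.

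The Ugt2a genes, glucuronosyltransferases of nose and gut, and the Ugt1a genes did not pass in the small intestine. Ugt2a3 read -0.31 and -2.21 in KO small intestine against 0.36 and 1.05 in WT, a difference of -1.96 with a wide error of 0.88. Ugt1a10 read 0.17 and -1.83 in KO against -0.47 and 1.22 in WT, with overlapping groups. For Ugt1a6a, which glucuronidates planar phenols, the probe with the highest mean read 5.28 and 3.93 in KO small intestine against 5.62 and 6.13 in WT, a difference of -1.27 (adjusted p = 0.104).

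The 3 Ugt1a6a probes gave different results. The Ugt1a genes each have a first exon of their own and share the rest, and 7 of the 9 in the gene table end at the same base. The probe that stands for Ugt1a6a (chr1:90115493-90115552, mm9, plus strand) and the most downstream one (chr1:90116514-90116573) lie 79.7 and 80.7 kb from the upstream probe at chr1:90035781-90035840. The upstream probe read -4.40 and -4.47 in KO small intestine against -4.66 and -5.49 in WT, and -0.77 and -0.77 in KO large intestine against -1.81 and -1.18 in WT. It was thus 3.67 higher in large than in small intestine in KO and 3.58 higher in WT. The probe that stands for the gene differed between the segments by 0.94 in KO and -0.59 in WT. The most downstream probe had a KO difference of -1.81 in the small intestine (adjusted p = 0.0242 over probes). That probe was well above background on only 1 of the 2 KO small intestine arrays, at -5.67 and -6.23. The size thus rests in part on signal near background. Since the probe that stands for Ugt1a6a lies toward the end that Ugt1a genes share, its signal cannot be assigned to Ugt1a6a alone, and exon positions were not looked up here.

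The sulfotransferases moved in both directions in KO small intestine. Sult1c2, a phenol sulfotransferase known from stomach and kidney, read -6.94 and -6.27 in KO small intestine against -2.44 and -1.22 in WT. It fell by 4.77 ± 0.46 (adjusted p = 0.0102). It was well above background on only 1 of the 2 KO arrays, and the difference was -5.38 to -3.10 over the alternative settings. Sult1c2 in the large intestine read -0.76 and -0.084 in KO against -0.56 and -0.41 in WT, with overlapping groups. Sult1b1, which sulfates thyroid hormones and phenols, read 4.93 and 3.81 in KO small intestine against 5.04 and 5.23 in WT, and Sult1d1 read 2.47 and 1.13 against 3.08 and 3.58. Both had KO under WT without passing (differences of -0.76 and -1.54).

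Sult1a1, the main phenol sulfotransferase, read 1.96 and 1.84 in KO small intestine against 0.63 and 0.43 in WT, and rose by 1.37 ± 0.20 (2.58-fold, adjusted p = 0.0233). Its second probe moved alike, with 1.85 and 1.63 in KO against 0.58 and 0.39 in WT. Sult2b1, which sulfates cholesterol and other sterols in stratified and barrier epithelia, read 2.50 and 2.45 in KO against 1.40 and 1.37 in WT, and rose by 1.09 ± 0.21 (2.13-fold, adjusted p = 0.0365). The 2 arrays of each genotype were almost equal.

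Sult5a1 read -2.19 and -0.99 in KO small intestine against -3.37 and -3.46 in WT and rose by 1.82 ± 0.44 (3.54-fold, adjusted p = 0.0489), but did not pass under 11 of 19 alternatives. Sult4a1, a sulfotransferase-like protein of neurons, read 0.53 and 1.69 in KO against -0.054 and -1.08 in WT, a difference of 1.68 ± 0.47 (adjusted p = 0.0651). The 3 sulfotransferases outside Sult1 all had KO above WT in the small intestine, with a median of 1.68.

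**Figure D4:**
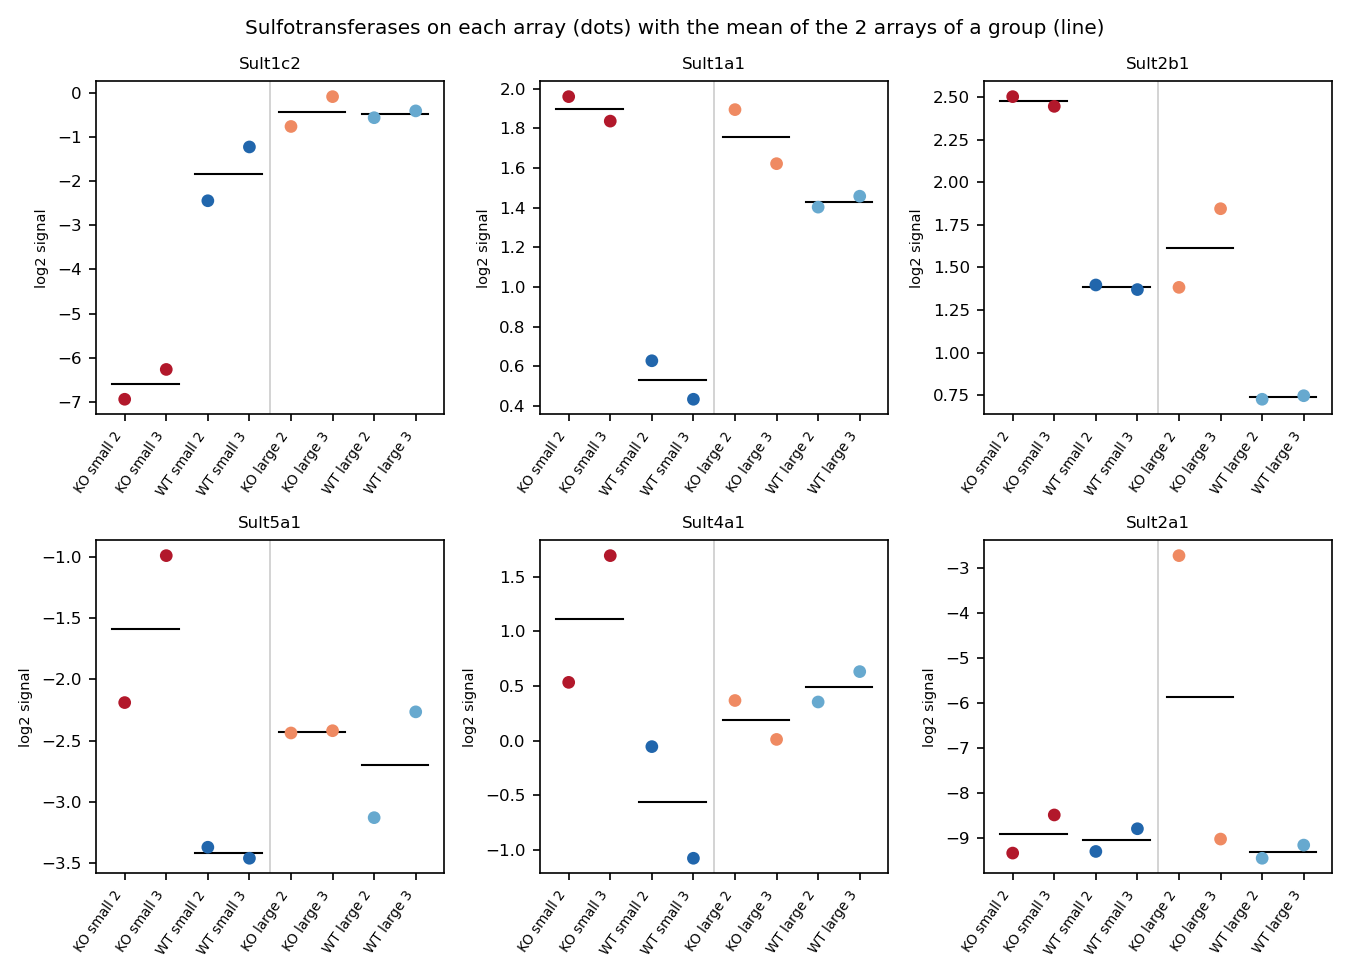
Log2 signal of 6 sulfotransferase genes on the 8 arrays, KO left of WT within each segment, with a line at the mean of each pair of arrays. Sult1c2 is far lower in KO small intestine, Sult1a1, Sult2b1 and Sult5a1 are higher there, and Sult2a1 stands out on KO large intestine array 2 alone.

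In the large intestine 0 of the 44 genes passed between KO and WT (the background is 0.308%), and 5 of the 44 had an unadjusted p under 0.05, as had 2674 of the 20138 genes tested. Those were Ces1d, Gsta1 and Gsta2, given above, Gstp1 and Sult2b1. Gstp1 read 4.59 and 4.90 in KO large intestine against 4.20 and 4.22 in WT, a difference of 0.54 (adjusted p = 0.349). Sult2b1 read 1.38 and 1.85 in KO against 0.73 and 0.75 in WT, a difference of 0.88 ± 0.21 (adjusted p = 0.192). Fold changes were above 0 for 31 of the 44 genes with a median of 0.22, against 10044 of 20138 and a median of -0.0012 over all genes tested.

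Across both segments, with additive terms for segment and genotype in the model (n = 4 arrays per genotype), 1 of 44 genes passed (background 0.651%, and 0.397% for higher). Sult2b1 rose by 0.99 ± 0.16 (1.98-fold, adjusted p = 0.0490), higher in KO than in WT in each segment. The call is marginal, since it did not pass under 12 of 18 alternatives, and without any 1 array the adjusted p was 0.0806 to 0.160. Ces1d, with a difference of -2.29 ± 0.42, came next (adjusted p = 0.0674).

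Whether the KO effect differed between the segments was tested directly, as the large intestine effect minus the small intestine effect. Of 44 genes 2 passed (background 0.139%), both with the large intestine effect higher (background 0.0943%). Ces2a had a KO difference of 0.062 in the large and -3.98 in the small intestine, a gap of 4.05 ± 0.37 (adjusted p = 0.0255). Gstm3 had 0.42 in the large and -3.03 in the small intestine, a gap of 3.45 ± 0.38 (adjusted p = 0.0482). Its junction probe had a smaller gap of 0.96 (adjusted p = 0.126 over probes). Sult1c2 had the widest gap, 4.83 ± 0.65, but did not pass (adjusted p = 0.0745), and Mgst1 (2.57 ± 0.33) and Ces2c by its upstream probe (2.94 ± 0.38) had adjusted p of 0.0675 and 0.0688. This count and the share over all genes depended on single arrays. Both were higher without KO small intestine array 2. Both were lower without array 3 of KO or WT small intestine, KO large intestine array 2 or either WT large intestine array. For the other genes that passed in the small intestine, a difference between the segments was therefore not shown.

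The 2 segments were also set against each other within each genotype. These comparisons share the small intestine arrays with the KO comparison above. In KO pups 18 of 44 genes passed between large and small intestine (background 15.9%), 16 higher (background 8.27%) and 2 lower (background 7.58%) in the large intestine. In WT pups 10 passed (background 19.8%), 4 higher (background 9.93%) and 6 lower (background 9.92%). The median difference was 1.12 in KO and -0.12 in WT, against -0.029 and 0.0018 over all genes tested. The WT count was lower without any single WT array, and the KO count was lower without either KO large intestine array. In each of these cases the share over all genes was lower too.

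In KO pups the largest rises in the large intestine were those of Sult1c2 (6.18 ± 0.46), Gstm3 (4.05 ± 0.27), Ces2c by its upstream probe (2.87 ± 0.27), Gsta1 (2.68 ± 0.47), Ces2a (2.67 ± 0.27), Gstm1 (2.62 ± 0.31), Mgst3 (2.54 ± 0.36) and Ugt2b34 (2.06 ± 0.39). In WT pups Gsta4 rose by 2.62 ± 0.43, Gstm1 by 2.61 ± 0.31, Sult1a1 by 0.90 ± 0.20 and Gstm2 by 0.89 ± 0.24. Gstm1 read 4.94 and 5.07 in KO large and 1.93 and 2.84 in KO small intestine, and 4.60 and 4.84 in WT large and 2.03 and 2.19 in WT small intestine, differences of 2.62 in KO and 2.61 in WT. Ces2a and Mgst1 passed in both genotypes with opposite signs, at 2.67 and 1.63 in KO and -1.38 and -0.94 in WT.

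Ugt2a3 read -6.76 and -8.99 in KO large against -0.31 and -2.21 in KO small intestine, and -7.14 and -8.06 in WT large against 0.36 and 1.05 in WT small intestine. The differences were -6.62 ± 0.88 in KO (adjusted p = 0.00463) and -8.31 ± 0.88 in WT (adjusted p = 0.00227). Only 1 of 2 large intestine arrays of each genotype was above background, so that the sizes rest in part on signals near background, and they were -7.73 to -4.12 in KO and -8.77 to -5.99 in WT over the alternative settings. Lower in WT large intestine were also Ces2e (-1.76), Ces2a (-1.38), Gsto2 (-1.33), Ugt2a1 (-1.21) and Mgst1 (-0.94), and in KO large intestine Sult2b1 (-0.86).

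**Figure D5:**
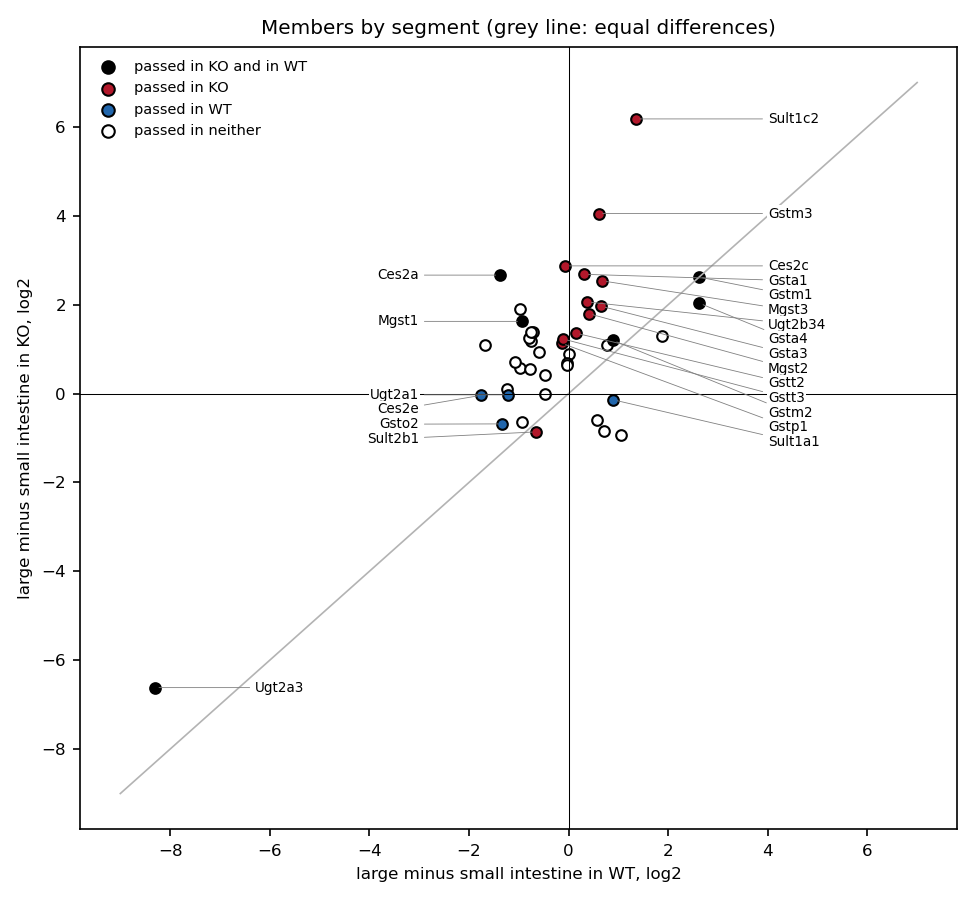
Large minus small intestine on the log2 scale for the 44 genes, in KO pups (vertical axis) and WT pups (horizontal axis), with the grey line marking equal differences. Most points lie above the line, Gstm1 lies on it, and Ugt2a3 is far lower in the large intestine of both genotypes.

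The remaining 9 genes were not well above background on both arrays of any group: Ces4a, Ces5a, Gstt4, Sult1c1, Sult1e1, Sult2a1, Sult3a1, Sult6b1 and Ugt2b1. Sult2a1, a hydroxysteroid sulfotransferase of the liver, read -2.72 on KO large intestine array 2, where it was above background, and between -9.44 and -8.48 on the other 7, where it was not. Probes for its relatives Sult2a2 and Sult2a4, which share 54 of 59 and 51 of 54 bases with it, read -3.67 and -4.18 on that same array. Ugt2b1, a liver glucuronosyltransferase, read -6.17 there, above background on that array only. This is the array on which Alb read 5.23, and the summed hepatocyte marker signal (12 of 14 markers measured) was 8.00 and 4.66 in KO large intestine against 4.60 and 5.51 in WT.

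In the small intestine, wide gaps between the arrays of a group were more frequent among the members than among all genes. The 2 KO small intestine arrays differed by more than 1 log2 unit for 15 of the 44 genes (34.1%, against 12.4% of all genes), and the 2 WT small intestine arrays for 14 (31.8%, against 9.69%). In the large intestine such gaps were found for 4 genes in KO (9.09%, against 7.1% of all genes) and 1 in WT (2.27%, against 3.31%), near the shares over all genes. Outside the members, the small intestine marker Fabp6 read -7.38 and 1.46 in KO small intestine and -5.81 and 1.72 in WT. The other small intestine markers had no gaps of that size there. Whether the arrays of a group held the same stretch of small intestine was not tested. Among the 19 genes with more than 1 kept probe, the probes disagreed in sign for 3 in the KO comparison of the small intestine (Ces2c, Gstm2 and Ugt1a6a) and lay more than 1 log2 unit apart for 5.

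Genes that work with these enzymes were counted in the same KO comparison of the small intestine. Over all genes tested 3.51% fell and 6.38% rose there, with a median of -0.10. Of 25 regulators of drug metabolism 9 fell and none rose, with a median of -1.11. Nr5a2, a nuclear receptor of gut and liver epithelium, read 0.21 and -0.68 in KO against 2.07 and 2.44 in WT and fell by 2.49 ± 0.33 (adjusted p = 0.0214). Cebpa, a factor of differentiating epithelium, fell by 2.22 ± 0.31 (adjusted p = 0.0229), and Vdr, the vitamin D receptor, fell by 1.74 ± 0.31 (adjusted p = 0.0326). None of the 25 passed in the large intestine and the median was 0.13.

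The supply and transport genes mostly did not pass. Of 14 genes of glutathione supply and use, Gpx1, a glutathione peroxidase, fell by 0.87 and Dpep1, a dipeptidase of glutathione conjugates, rose by 1.26. Of 7 genes of UDP-glucuronate supply and glucuronide handling, Ugt8a, a ceramide galactosyltransferase, rose by 1.64 and no other gene passed. None of 12 genes of sulfate donor supply and sulfate release passed. Of 21 other conjugation and hydrolysis enzymes, Aadac, an arylacetamide deacetylase, fell by 2.61, and the methyltransferases Hnmt and Nnmt rose by 1.86 and 1.52. Of 22 Nrf2 target enzymes, Nqo1 and Cat fell by 1.11 and 1.69 and Akr1b8 and Cbr3 rose by 1.94 and 1.42. Of 14 carriers 1 fell and 1 rose, the efflux pump Abcc4, by 1.39. No gene of these 7 lists passed in the large intestine.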

How the data were processed

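The scanner files hold spot intensity, background-subtracted within each array by Agilent Feature Extraction, per the file headers, with probe positions on mm9. A deposited table of normalized intensity served as an alternative, since no source states how it was normalized. The submitters' processing notes list R 3.3.0. For each array the 75th percentile (2643 to 3572 signal units) was subtracted on the log2 scale, outlier-flagged spots were left out (302 probes dropped, 0 of them members), and spots of a probe were averaged. A probe entered the tests if both arrays of some group had it well above background, and the probe with the highest mean stood for a gene. Genes were named through accessions against GRCm38.p6, so that Ces3 of the files is Ces1d, Ces6 is Ces2a, Ces2 is Ces2c and Ces5 is Ces2e.

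limma 3.58.1 (R 4.3.3) was fitted to 4 group means over all 8 arrays (4 residual degrees of freedom), and the code was tested on simulated data with 200 changed genes. The number of arrays limits the precision. For KO minus WT within a segment the median SE was 0.28 over all genes tested, 0.37 over the 44 members and 0.88 over the Ugt2 genes. The text names the members that passed, the 2 with the highest mean signal of each family, and up to 8 per direction between segments, besides members picked after their values were seen where probes, arrays or sequences are described. Members and lists were chosen with earlier results of these data known. "At least" folds set the bright group's mean against the higher of the dim probe's own value and the lowest signal well above background on that array. Each slide column held 1 group, which leaves slide column and group inseparable. Alternatives are given in the closing section. Some results are not reported here.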

Additional observations from a re-analysis of the deposited data

Results flagged for a closer look

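Ces2a and Gstm3 are the members whose KO effect differed between the segments in a test of that difference. For Ces2a the large intestine effect minus the small intestine effect was 4.05 (adjusted p = 0.0255), which passed under 12 of 18 alternatives. For Gstm3 it was 3.45 (adjusted p = 0.0482), which passed under 5 of 18. The Gstm3 junction probe had a smaller value of 0.96. Neither Ces2a nor Gstm3 passed with the replicate number as a block.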

How the results depend on the processing

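Of the 44 genes, 10 passed between KO and WT small intestine (9.89% over all genes). With no filter on background 6 of 53 passed (1.92% over all genes). With only the groups compared in the fit 1 of 44 passed, Ces2a (0.164% over all genes). Leaving out 1 array at a time gave 2 to 23. In the large intestine that range was 0 to 1 (1 without KO array 3), against 0 with all arrays. Over both segments 1 gene passed, and 0 did with no filter on background, with outlier flags ignored, with every probe tested, with the replicate block or with an at least 2-fold change, and 0 to 0 without 1 array. The segment difference called 2 genes, and 4 with normexp background correction or a trended and robust prior. It called 1 with quantile normalization, no filter or a filter on all 8 arrays. The mean of a gene's probes, every probe tested and the replicate block also gave 1. Its dependence on single arrays is described above. Between large and small intestine the ranges without 1 array were 9 to 16 in KO and 2 to 14 in WT. Other settings kept the counts within 1.5 times. Without 1 array the share that passed over all genes changed as well in each comparison.

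Large minus small intestine in WT turned sign for Ces2c (2.53 with the mean of a gene's probes, 3.78 with every probe tested), Ugt1a6a (1.01 and 3.58) and Gstm4 (1.48 with every probe tested), because other probes enter. Replicate numbers were not taken to pair the samples. Deviations of same-numbered arrays correlated at 0.0070 to 0.26 between groups, which cannot decide whether samples share a pup. Xist stood high on both KO arrays numbered 3 (-2.42 and -2.43) and on no WT array. Whether those samples share a pup, and what part sex has in the KO differences, was not tested. With the replicate block 8 of the 10 genes passed in the small intestine, and in the segment difference Ces2a (adjusted p = 0.0545) and Gstm3 (0.0892) did not, while Sult1c2 did. The causes of the other changes were not tested.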
